A study of Mus musculus with 4 samples.

Results

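Single-nucleus RNA sequencing of the hippocampus of adult mice was used to describe 2653 nuclei of dentate granule neurons, chosen by their counts of 5 genes, out of 32572 barcodes with at least 5000 unique molecular identifiers (UMIs, tags that mark single RNA molecules). A barcode was taken as a granule nucleus where at least 3 of Prox1, Glis3, Dsp, Rfx3, Il1r1 and Npnt had a UMI, Gad1 and Gad2 together had at most 1 and Dcx at most 2. It was a member where Trhr, Ano2, Trabd2b, Nek10 and Lgr6 together had at least 5 UMIs. The other 9970 granule nuclei, with fewer than 5, served for comparison. The working name of the population was ventral-type granule neurons with Trhr, but Trhr itself was detected in a minority of the members, so they are called Nek10-Trabd2b granule nuclei here, after 2 of their leading genes. Since the counts of these genes chose the members, their levels are given as a description only.

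The 4 libraries came from 2 Control samples (Kat6a-f/f, with Kat6a between loxP sites, where Cre recombinase cuts) and 2 Kat6a-cKO samples (NEX-cre with Kat6a-f/f), so both groups carried the floxed alleles. KAT6A is a histone acetyltransferase. In NEX-cre, Cre is placed at Neurod6, a gene of forebrain excitatory neurons, which directs the deletion to those neurons and their precursors and not to granule neurons alone. The labels do not say whether a library came from 1 animal, so p-values measure the spread between libraries. Kat6a in the members was 87.0 and 91.5 CPM (counts scaled to the same total in every library, here with the TMM factors of edgeR) in Control against 77.9 and 83.0 in Kat6a-cKO, log2 fold change -0.15 ± 0.085 (SE, adjusted p = 0.772 by edgeR). Which exons were removed is not given, so this count over the whole gene does not measure the deletion. The cre transcript had 0 counts in the members of both Control libraries and 1 and 0 in Kat6a-cKO. In barcodes of 100 to 900 UMIs, which are mostly empty droplets, it was at 0 CPM in both Control libraries and at 4.10 and 5.24 CPM in Kat6a-cKO, as the labels have it.

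Dentate granule neurons receive the input of the entorhinal cortex and send mossy fibres to CA3. Their gene expression changes along the long axis of the hippocampus, from the dorsal end, tied to spatial memory, to the ventral end, tied to emotion and stress. Trhr encodes a receptor for thyrotropin-releasing hormone (TRH) that acts through Gq proteins, phospholipase C and calcium release. Of the other genes of the rule, Ano2 encodes a calcium-activated chloride channel, Nek10 a NIMA-related kinase, Lgr6 a receptor for R-spondins, which strengthen Wnt signalling, and Trabd2b a membrane metalloprotease that cleaves and inactivates Wnt proteins.

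In GENCODE M21 on GRCm38 (the files' build is mm10), the protein-coding genes of the rule lie on 5 chromosomes. Trhr is on chromosome 15 from 44196135 to 44235912 on the plus strand and Ano2 on chromosome 6 from 125690419 to 126040126, plus strand. Trabd2b is on chromosome 4 from 114406724 to 114615098, plus strand, and Nek10 on chromosome 14 from 14803415 to 15012059, plus strand. Lgr6 is on chromosome 1 from 134983301 to 135105276 on the minus strand. RefSeq promoter windows on GRCm38.p6 were found for Ano2, Nek10 and Lgr6 and not looked up elsewhere for Trhr and Trabd2b. The last 150 bases before the first of each gene's listed starts are shown because these 3 genes of the rule differ there in base composition. Capitals mark CG dinucleotides, the sites of DNA methylation, and the sequences run 5′ to 3′ on the gene's strand.
Ano2, chr6:125690269-125690418, plus strand: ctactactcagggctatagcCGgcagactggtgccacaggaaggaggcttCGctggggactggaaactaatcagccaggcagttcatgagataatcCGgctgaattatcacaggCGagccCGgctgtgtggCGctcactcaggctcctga
Nek10, chr14:14820665-14820814, plus strand: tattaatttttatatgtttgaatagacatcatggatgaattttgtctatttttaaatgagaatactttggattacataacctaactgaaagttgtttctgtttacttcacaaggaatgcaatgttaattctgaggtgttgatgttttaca
Lgr6, chr1:135105277-135105426, minus strand: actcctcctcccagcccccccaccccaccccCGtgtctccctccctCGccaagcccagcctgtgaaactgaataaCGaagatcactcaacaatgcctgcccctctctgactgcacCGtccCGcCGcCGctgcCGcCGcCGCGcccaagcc
The Lgr6 window held 11 CG dinucleotides and 68.0% G and C, and the Ano2 window 6 and 57.3%. The Nek10 window, which lies inside the M21 span of the gene, held 0 CG dinucleotides and 26.7% G and C. Among 32851 windows of the same length, the median was 4 CG dinucleotides and 54.0% G and C, and 85.7% held at least 1.

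Total counts ran from 171323466 to 186897245 per library. There were 487 and 796 members in the Control libraries and 749 and 621 in the Kat6a-cKO libraries, with median UMI counts of 15298, 14235, 13630 and 13883. The other granule nuclei were shallower, at medians of 11766.5, 11104, 10797 and 11020.5. Between 15 and 20 barcodes of at least 5000 UMIs were shared by each pair of libraries, and 2 member barcodes by the 2 Control libraries.

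One library stood apart in a gene of the rule. Lgr6 was at 17.1 CPM in the members of Control replicate 1 and at 94.8, 94.8 and 85.7 CPM in Control replicate 2 and Kat6a-cKO replicates 1 and 2 (CPM before TMM scaling here and in all comparisons between classes of nuclei). In the other granule nuclei the same library was at 4.89 CPM and the others at 35.8, 35.6 and 32.7. A second gene of chromosome 1, Cdh7, a cadherin, was at 3.79 CPM in the members of that library against 24.4, 27.0 and 27.4. Nmbr, the neuromedin B receptor gene on chromosome 10, was at 11.4 CPM there against 1.76, 2.22 and 1.60. Outside granule nuclei the low Cdh7 was not seen. In nuclei with at least 5 UMIs of Gad1 and Gad2 and at most 1 of the 6 granule genes, Cdh7 was at 49.4 CPM in Control replicate 1 and at 20.8, 33.9 and 30.8 CPM in the others.

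The members were mixed in which genes of the rule they showed. In Control replicates 1 and 2 and Kat6a-cKO replicates 1 and 2, in that order throughout, Nek10 had a UMI in 88.9%, 87.4%, 85.6% and 87.0% of members. Trabd2b had one in 68.2%, 69.3%, 66.5% and 64.3%, and Ano2 in 32.0%, 35.3%, 39.5% and 37.0%. Lgr6 had one in 20.7% of members of Control replicate 1 and in 67.8%, 69.7% and 62.5% of the others. Trhr had one in 22.4% of members (95% Wilson interval 18.9 to 26.3), 18.5% (15.9 to 21.3), 21.4% (18.6 to 24.4) and 19.0% (16.1 to 22.3); intervals cover counting error only. Among the other granule nuclei Trhr was found in 2.07%, 2.51%, 2.70% and 1.97%. Nek10 was found there in 42.8%, 43.8%, 40.2% and 44.8% and Trabd2b in 18.2%, 20.0%, 19.9% and 19.1%. Neither gene of the name was thus limited to the members. Nuclei with at least 3 UMIs of the CA1 genes Wfs1, Mpped1 and Fibcd1 and at most 1 of the 6 granule genes, taken as the background, showed a Trhr UMI in 1.05%, 1.31%, 1.93% and 1.43%, at median depths of 19856, 18006, 17985 and 18188 UMIs. With each nucleus thinned to 5000 UMIs, Trhr was left in 9.86%, 8.29%, 9.48% and 9.02% of members and in 0.801%, 0.972%, 1.27% and 0.890% of other granule nuclei. Single members held at most 9, 8, 7 and 6 Trhr UMIs. At least 3 of the 5 genes were found in 40.7%, 59.7%, 60.7% and 55.9% of members.

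**Figure D1:**
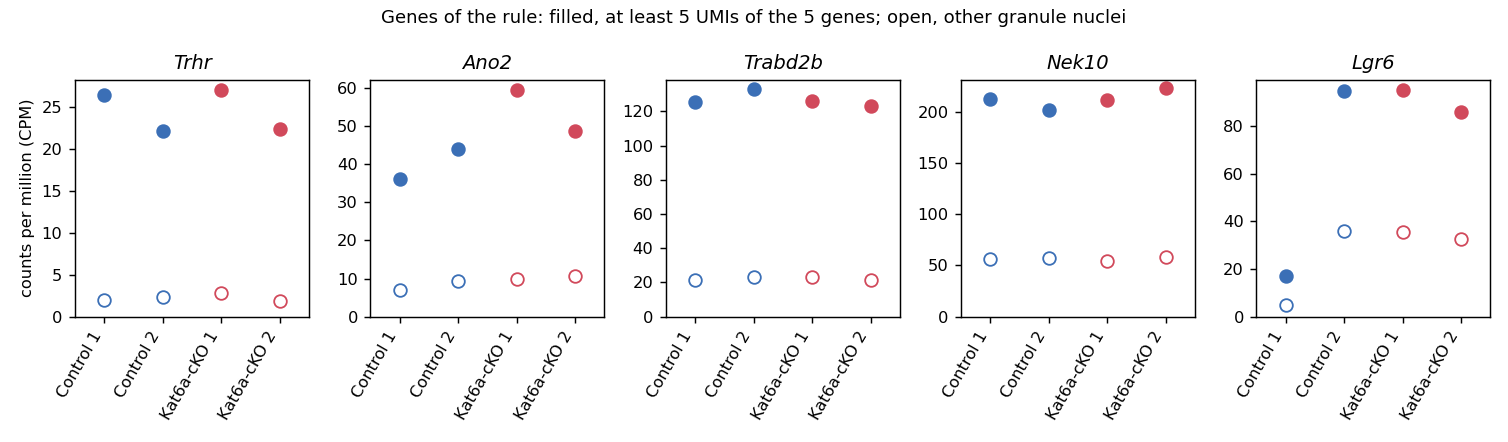
Levels of the 5 genes of the rule (vertical axis, CPM from 0) in each of the 4 libraries, for the members (filled) and the other granule nuclei (open), with Control in blue and Kat6a-cKO in red. Trabd2b lies between 123 and 133 CPM in the members of all libraries, and Lgr6 is low in Control replicate 1 in both kinds of nuclei.

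Summed over nuclei, Trhr was at 26.4, 22.2, 27.0 and 22.5 CPM in the members and at 1.99, 2.33, 2.78 and 1.80 CPM in the other granule nuclei. Trabd2b was at 125, 133, 126 and 123 CPM against 21.3, 23.1, 23.1 and 21.6. Nek10 was at 213, 202, 212 and 223 CPM against 55.9, 57.5, 53.9 and 58.4. Ano2 was at 36.3, 44.1, 59.6 and 48.7 CPM against 7.08, 9.27, 9.96 and 10.6. For each of these 4 genes the libraries lay closer to each other than the 2 kinds of nuclei did, which the rule fixes. The minimum of 5 cut through a continuous range of counts. At exactly 5 UMIs there were 139, 208, 210 and 194 members, and just outside, at 4 UMIs, 215, 303, 268 and 237 granule nuclei.

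Prox1, the transcription factor that sets granule fate, had a UMI in 93.8%, 92.2%, 91.2% and 91.5% of members, but it is one of the genes that chose granule nuclei. Over 12 granule identity genes outside the rule of at least 20 CPM, the median log2 ratio of members over other granule nuclei was -0.01, from -0.41 for Trpc6, a cation channel gene, to 0.34 for Calb1. Of 7 inhibitory markers, 1 (Dlx1) was at 0 counts in the members of all libraries, and their summed level was 1281, 1114, 1198 and 1301 CPM, against 1469, 1226, 1328 and 1324 in the other granule nuclei. Most of that sum was Adarb2, at 1259, 1093, 1180 and 1282 CPM in the members, while Gad1, which the rule limits, lay between 13.6 and 16.7 CPM. Wfs1, a CA1 gene, lay between 3.64 and 6.39 CPM. Their summed level of 6 CA3 markers was 926, 913, 896 and 925 CPM. In the other granule nuclei the same sum was 895, 944, 1075 and 1070 CPM, higher in both Kat6a-cKO libraries. Rfx3 was under 5 UMIs per 10000 in 110, 101, 116 and 101 of the other granule nuclei (3.67%, 4.09%, 4.90% and 4.73%) and in 4, 1, 0 and 4 members. In those other granule nuclei of low Rfx3, Spock1, a proteoglycan gene of CA3, averaged 664 CPM and Kcnc2, a potassium channel gene, 751 CPM, against 67.1 and 59.9 CPM in the members. The counts of genes and many of the ratios between the 2 kinds of nuclei are therefore also given with a minimum of 5 Rfx3 UMIs per 10000, which was added after these values were seen.

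Genes outside the rule went only in part with the word ventral in the working name. Over the 3 listed ventral-side genes of at least 20 CPM the median log2 ratio of members over others was -0.10, and over 7 dorsal-side genes -0.13, against -0.02 for all 6009 genes. With the Rfx3 minimum these medians were -0.17, -0.10 and -0.02. Cyp7b1, a steroid hydroxylase and the ventral-side gene with the most counts, was lower in the members of every library, at 570, 501, 592 and 508 CPM against 632, 567, 613 and 520 (log2 ratio -0.10 ± 0.071, SD over 4 libraries). Nr2f1, a nuclear receptor gene of the ventral-side list, was at 18.7 CPM in the members and 16.9 in the others (0.11 ± 0.054). Its relative Nr2f2 had a ratio of 0.17 ± 0.047 and Efnb2, an ephrin, of 0.08 ± 0.074. Pcp4, a calmodulin-binding peptide, was lower, at -0.20 ± 0.066, and so was Penk, an enkephalin gene of few counts, in 3 of 4 libraries (-0.23 ± 0.16). In barcodes of 100 to 900 UMIs, mostly empty droplets, Pcp4 was far higher, at 1189, 1221, 953 and 1022 CPM. The share of free RNA estimated from those barcodes was 4.72%, 5.24%, 3.03% and 3.18% in the members. In the other granule nuclei it was 6.65%, 6.65%, 5.50% and 4.08%. The part of free RNA in the ratio of Pcp4 was not tested. Dorsal-side genes were mixed. Spata13 was lower at 22.2, 25.4, 23.6 and 21.8 CPM in the members against 49.6, 50.6, 42.8 and 40.2 (log2 ratio -0.84 ± 0.12). Gsg1l, an AMPA receptor subunit partner, was lower at 24.4, 23.96, 23.1 and 23.7 CPM against 42.1, 42.8, 38.7 and 37.0 (-0.65 ± 0.075). For both, no library of the members reached the lowest library of the others. Lct, a lactase gene used as a dorsal granule marker, was near even at -0.04 ± 0.11, and Tdo2, a tryptophan dioxygenase, was higher in the members at 0.45 ± 0.15. The nuclei carry no position, so where in the dentate gyrus they lay was not measured.

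Between members and other granule nuclei no gene outside the rule differed 2-fold in the same direction in all 4 libraries, with 5 CPM added to each level. The 5 genes of the rule were the only ones at least 2-fold higher in all 4, and 0 were at least 2-fold lower. This depended on the comparison: outside the rule, 4 genes were higher and 34 lower against granule nuclei with 0 UMIs of the 5 genes. With the rule applied to nuclei thinned to 5000 UMIs, at a minimum of 2 UMIs of the 5 genes, 0 were higher and 17 lower. With the members kept and every nucleus thinned, 2 were higher and 2 lower, and with doublets left out 2 were higher and 10 lower. At 1.5-fold, 9 of 6009 genes of at least 20 CPM were higher in every library (0.15%) and 10 were lower (0.166%). With the Rfx3 minimum these were 7 and 7 of 6007. The median log2 ratio of the 6009 genes was -0.02. These ratios describe a choice made on the same nuclei and carry no test.

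Among the 15 genes with the highest ratios, Col23a1, a transmembrane collagen, was at 35.2, 40.8, 43.0 and 41.6 CPM in the members and at 14.9, 12.8, 19.2 and 16.4 in the others, a log2 ratio of 1.12 ± 0.17 (1.09 with the Rfx3 minimum). Nhs, a regulator of actin and cell shape, was at 25.0, 31.9, 38.6 and 40.1 CPM against 10.2, 13.5, 15.03 and 15.3 (1.06 ± 0.085). Scn9a, a voltage-gated sodium channel gene, was at 34.5, 41.4, 53.3 and 46.8 CPM against 15.7, 17.5, 20.1 and 21.8 (1.04 ± 0.13). For all 3 genes the lowest library of the members lay above the highest library of the others. Pdzrn4, a RING-finger protein with PDZ domains, had a ratio of 0.98 ± 0.079, and Epha10, an ephrin receptor, of 0.69 ± 0.047. Ror1, a receptor for Wnt5a, was at 287, 309, 331 and 287 CPM against 194, 184, 203 and 172 (0.68 ± 0.083). The kinase genes Stk32b (0.93 ± 0.28) and Grk5 (0.66 ± 0.071), Cobll1 (0.87 ± 0.16), Greb1l (0.71 ± 0.14), Zfp804b (0.71 ± 0.11), Akain1 (0.63 ± 0.082), Gm49169 (0.63 ± 0.10) and Pla2g4e (0.62 ± 0.058) completed the 15, with Tshz2. Tshz2, a zinc-finger transcription factor, was uneven at 87.3, 17.1, 53.4 and 39.5 CPM in the members, and its ratio ran from 0.29 in Control replicate 2 to 1.64 in Control replicate 1. All 15 ratios were at least 0.5 with the Rfx3 minimum.

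**Figure D2:**
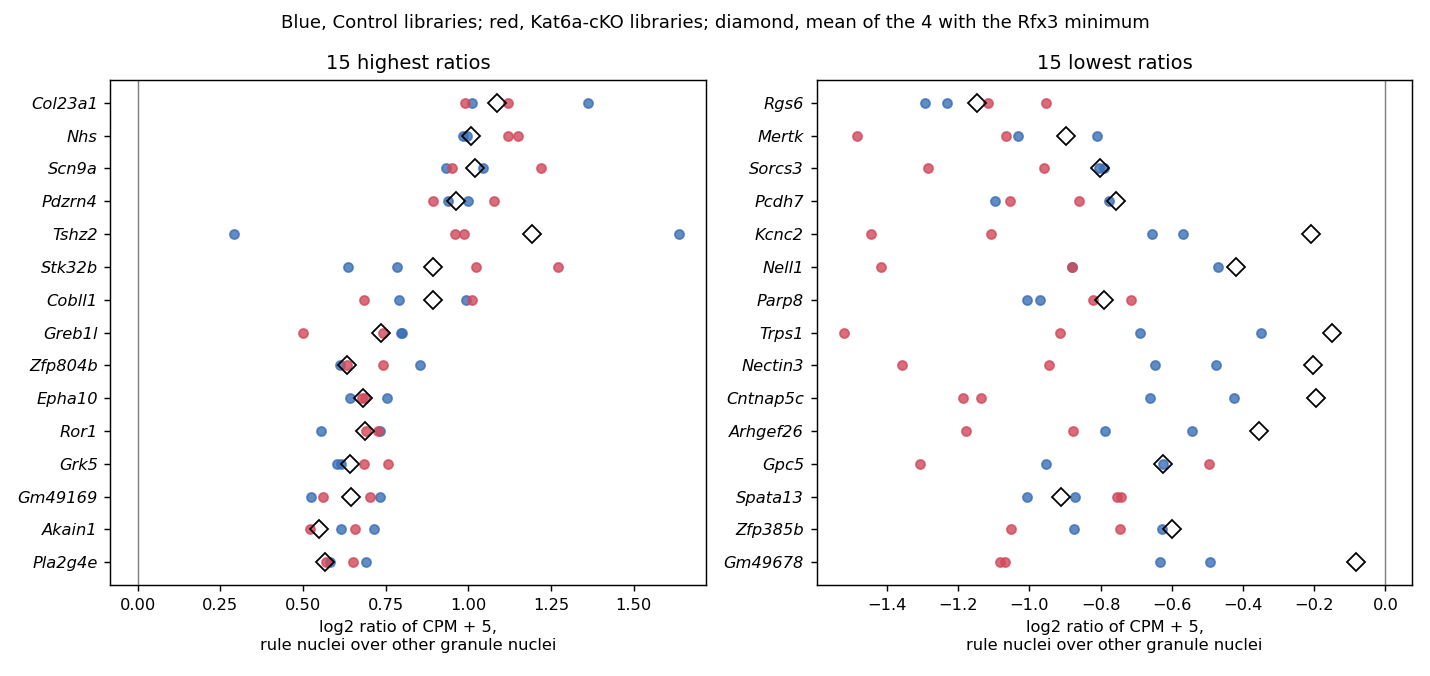
Log2 ratios of CPM + 5, members over other granule nuclei (horizontal axis), for the 15 genes with the highest and the 15 with the lowest mean ratio outside the rule; each point is a library and the diamond is the mean of the 4 with the Rfx3 minimum. Kcnc2, Trps1, Nectin3, Cntnap5c and Gm49678 move toward 0 with that minimum, and Rgs6, Spata13 and Col23a1 stay near their first values.

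Of the 15 lowest ratios, some stayed and some shrank when the nuclei of low Rfx3 were left out. Rgs6, a regulator of G-protein signalling, was at 41.4, 38.9, 57.4 and 44.2 CPM in the members against 104, 103, 116 and 102, a ratio of -1.15 ± 0.15, and of -1.15 with the minimum. Mertk, a receptor for the uptake of dying cells, went from -1.10 ± 0.28 to -0.90. Sorcs3, a sorting receptor of synapses, went from -0.96 ± 0.23 to -0.80, Pcdh7, a protocadherin, from -0.95 ± 0.15 to -0.76, and Parp8 from -0.88 ± 0.14 to -0.79. Kcnc2 went from -0.95 ± 0.41 to -0.21, Trps1, a zinc-finger repressor, from -0.87 ± 0.49 to -0.15, and Nectin3, an adhesion gene of CA3, from -0.86 ± 0.39 to -0.20. Cntnap5c went from -0.85 ± 0.37 to -0.19 and the RNA gene Gm49678 from -0.82 ± 0.30 to -0.08. The other 4 besides Spata13 were Nell1 (-0.91 to -0.42), Arhgef26 (-0.85 to -0.35), Gpc5 (-0.84 to -0.62) and Zfp385b (-0.83 to -0.60). Of the 15, 8 were still at or under -0.5 with the minimum.

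Levels of several genes changed with the 5-gene count on both sides of the minimum of the rule. Over granule nuclei with 0, 1, 2, 3 to 4, 5 to 7 and at least 8 UMIs of the 5 genes, Col23a1 averaged 11.5, 13.3, 16.9, 22.2, 32.2 and 51.5 CPM over the 4 libraries. Pdzrn4 averaged 59.6, 65.8, 76.0, 99.7, 124 and 194 CPM. Rgs6 averaged 155, 107, 82.2, 68.2, 49.0 and 40.8 CPM, and Spata13 54.2, 46.5, 44.3, 36.9, 27.7 and 16.5. Rgs6 was thus lower at each step among the groups that hold no member as well as among those that do, while Lct stayed between 28.6 and 34.7 CPM. Other genes had other shapes. Mertk averaged 62.9 CPM at 0 UMIs and 17.4 at 1, and Cobll1 lay between 11.3 and 16.2 CPM under the minimum and at 25.2 and 34.9 above it. The depth moved with the count: in Control replicate 1 the median rose from 10759 UMIs in nuclei with 0 to 17101 in nuclei with at least 8. With every nucleus thinned to 5000 UMIs, the log2 ratio of members over others was 1.10 for Col23a1 and -1.34 for Rgs6.

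**Figure D3:**
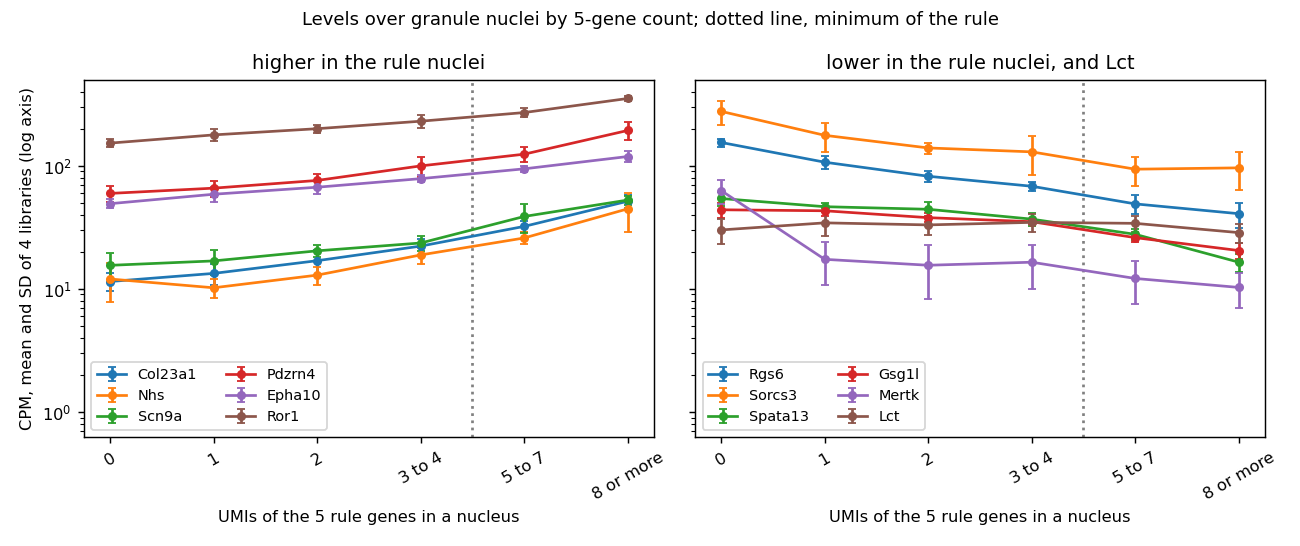
Levels (CPM, log axis) of 12 genes over granule nuclei grouped by their UMIs of the 5 genes of the rule (horizontal axis); points and bars are the mean and SD of the 4 libraries and the dotted line is the minimum of the rule. Col23a1, Nhs, Scn9a, Pdzrn4, Epha10 and Ror1 are highest at 8 or more UMIs, Rgs6, Spata13, Gsg1l and Mertk are lowest there, and Lct is nearly level.

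By correlation of normalised log levels over the granule nuclei of each library, 10 genes were most like the 5-gene sum. Trpm3, a calcium-permeable channel, had a mean Pearson r of 0.363 over the 4 libraries (0.302 to 0.401). Ahcyl2, a partner of the IP3 receptor, had 0.322, Pip5k1b, a lipid kinase, 0.304, Egfem1 0.298 and Rasgrf2, a Ras exchange factor, 0.281. Slc4a4, a bicarbonate transporter gene, followed at 0.274, then Lrrtm4 at 0.267, Csmd3 at 0.263, Zmat4 at 0.259 and Fam19a2 at 0.257. Zfp385b had the lowest r, -0.291. The nuclei of a library share its depth and its free RNA, detection rises with depth, and these correlations are weak.

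The members with a Trhr UMI differed from those without in genes the rule did not count. They numbered 109, 147, 160 and 118, with median UMI counts of 16475, 15811, 14943.5 and 15350.5, against 14992.5, 13914, 13265 and 13582 in members without Trhr. Kcnmb2, a subunit of calcium-activated BK potassium channels, was at 24.4, 33.8, 53.1 and 27.8 CPM with Trhr and at 6.06, 7.74, 11.8 and 7.01 without, a log2 ratio of 1.57. Nhs was at 49.3, 66.5, 65.5 and 68.8 CPM with and 17.4, 22.9, 30.5 and 32.5 without (1.15). Zfp423, a zinc-finger transcription factor, was at 37.9, 40.1, 36.6 and 34.9 CPM with and 18.8, 15.4, 16.1 and 17.4 without (0.95). For all 3, the lowest library with Trhr lay above the highest without. Stk32b (1.24), Camk2d, a calcium-dependent kinase (0.99), Pdzrn4 (0.98) and Scn9a (0.97) were also higher with Trhr in every library. Syndig1, a synapse protein that binds AMPA receptors, was lower at 30.4, 23.3, 37.7 and 45.0 CPM against 82.7, 84.5, 94.3 and 85.8 (-1.26). Stat3, a cytokine-activated transcription factor, was lower at 7.47, 19.1, 17.7 and 19.7 CPM against 39.3, 44.1, 41.1 and 48.4 (-1.25), and Spata13 had a ratio of -0.95. Nek10 was lower with Trhr (-0.45), but a member without Trhr needs 5 UMIs of the other 4 genes, so the rule itself favours that. Ano2 (0.77) and Trabd2b (0.20) were higher with Trhr in every library. These genes were the extremes of a list ranked on the same nuclei and carry no test.

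Genes around the TRH receptor showed small differences between the members and the other granule nuclei. The 13 measured genes of a TRH receptor pathway list (Gq proteins, phospholipases, IP3 receptors, kinases and channels) of at least 20 CPM had a median log2 ratio of -0.02, that of all 6009 genes. Kcnk9, a leak potassium channel gene of the TASK family, which Gq-coupled receptors can inhibit, was the highest at 76.1, 90.0, 84.6 and 101 CPM against 52.0, 66.0, 54.3 and 71.9 (0.50 ± 0.076). Its lowest library in the members was above its highest in the other granule nuclei. Itpr1, the main neuronal IP3 receptor, had a ratio of 0.27 ± 0.01. Trhde, the enzyme that degrades TRH outside cells, was the lowest at 101, 105, 94.6 and 97.0 CPM against 136, 139, 172 and 160 (-0.58 ± 0.22), and -0.21 with the Rfx3 minimum. Trh, the hormone gene, was at 0.030 CPM in the members on average, and Trhr2 at 0 counts.

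Among Wnt genes, the R-spondin gene Rspo3 was at 19.0 CPM in the members and 13.0 in the others (log2 ratio 0.41 ± 0.15), and Frzb, a secreted Wnt antagonist, at 22.7 and 17.4 (0.31 ± 0.12). Lgr4, the more widely used R-spondin receptor, was near even at 60.3 and 62.1 CPM (-0.04 ± 0.085), and so was Axin2, a target of canonical Wnt signalling, at 19.4 and 20.8 (-0.08 ± 0.14). Of the anoctamins besides Ano2, Ano4 had a ratio of 0.28 ± 0.093, Ano3 of 0.21 ± 0.048 and Ano6 of 0.13 ± 0.049, and of the NIMA-related kinases besides Nek10 none of the 5 with at least 20 CPM was outside -0.09 to 0.05. Over 18 glutamate receptor genes the median ratio was -0.0028, from -0.15 to 0.49. The highest was Grik3, a kainate receptor subunit, at 82.1 against 57.0 CPM (0.49 ± 0.092), and Gria4, an AMPA receptor subunit, at 153 against 124 (0.29 ± 0.072). Calb1, the calcium buffer of mature granule cells and the highest of the identity genes, was at 103 against 79.9 CPM (0.34 ± 0.031). Trpc6 was lower at 168, 145, 150 and 135 CPM against 224, 209, 189 and 179 (-0.41 ± 0.079), and C1ql2, a synapse organiser gene, had a ratio of -0.35 ± 0.091. Sgk1, a kinase gene induced by corticosteroids, was lower at 37.1, 38.7, 38.3 and 40.3 CPM against 56.0, 62.3, 66.4 and 64.1 (-0.62 ± 0.076), and -0.48 with the Rfx3 minimum.

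The share of the members among granule nuclei did not separate the genotypes. It was 13.97% (95% Wilson interval 12.9 to 15.2) of 3485 granule nuclei and 24.4% (22.9 to 25.9) of 3265 in Control, and 24.04% (22.6 to 25.6) of 3116 and 22.5% (21.0 to 24.1) of 2757 in Kat6a-cKO. Control replicate 1 was low and replicate 2 was the highest of all 4, so the Kat6a-cKO libraries lay between the 2 Control libraries. The difference of means, 4.10 percentage points, gave p = 1 in the exact permutation test (two-sided), which cannot go below 0.33 here. Without Control replicate 1, the library of low Lgr6, the difference was -1.10 points. With Lgr6 left out of the sum the mean shares were 15.5% ± 3.10 in Control and 17.0% ± 0.675 in Kat6a-cKO (SD, n = 2).

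Kat6a-cKO was compared with Control within the members to ask which of their genes change with the genotype. Of 14109 genes tested by edgeR's quasi-likelihood test, 6 passed a Benjamini-Hochberg adjusted p of 0.05 (0.0425%), 2 higher and 4 lower in Kat6a-cKO. With a minimum of 8 UMIs of the 5 genes in place of 5, none of the 6 passed: the adjusted p by edgeR was 0.221 for 6430584L05Rik (1.54 on the log2 scale) and Rpl37 (-0.91), 0.634 for Gm3279 (2.63) and CT010467.1 (-0.35), 0.655 for Rps21 (-0.53) and 0.524 for Rpl34 (-0.84). In the other granule nuclei of the same libraries, 54 of 17176 passed (0.314%), 9 higher and 45 lower. The 2 genes that rose are non-coding RNA genes on chromosome 6, which also carries Neurod6, the site of NEX-cre. Only the Kat6a-cKO samples carried NEX-cre, so the loss of Kat6a and the cre allele cannot be told apart in this comparison. The 4 that fell are 3 ribosomal protein genes and a ribosomal RNA gene.

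6430584L05Rik, a long non-coding RNA gene on chromosome 6 from 55396887 to 55412285, was at 6.25 and 5.39 CPM (after TMM, as are the values that follow for genotype) in Control against 18.0 and 15.8 in Kat6a-cKO. It rose by 1.55 ± 0.18 (log2, SE, adjusted p = 0.0196 by edgeR), and by 1.34 ± 0.12 in the other granule nuclei (adjusted p = 0.0103). Gm3279, another non-coding RNA gene, from 55684571 to 55694574, was at 0.240 and 0.235 CPM in Control (2 and 3 counts) and at 2.81 and 4.24 in Kat6a-cKO (31 and 40 counts). It rose by 3.82 ± 0.50 (adjusted p = 0.0313 by edgeR), and by 4.42 ± 0.27 in the other granule nuclei (adjusted p = 0.00224). In plus-strand coordinates, its start lies 3307 bases past Neurod6 (55677822 to 55681263, minus strand), and 6430584L05Rik ends 265536 bases before Neurod6. Neurod6 was at 12.02 and 13.5 CPM in Control against 6.72 and 7.21 in Kat6a-cKO, a log2 difference of -0.88 ± 0.17 that did not pass (adjusted p = 0.151 by edgeR). In barcodes of 100 to 900 UMIs, Neurod6 was far higher, at 258 and 338 CPM before TMM in Control against 152 and 206 in Kat6a-cKO. With the profile of those barcodes subtracted, Neurod6 was no longer among the genes tested. The part of free RNA in its level and difference was not tested further. The 150 bases before the RefSeq starts of the 2 RNA genes are shown, since their transcripts separate the genotypes, with CG dinucleotides in capitals, 5′ to 3′ on the plus strand, GRCm38.p6.
Gm3279, chr6:55684421-55684570: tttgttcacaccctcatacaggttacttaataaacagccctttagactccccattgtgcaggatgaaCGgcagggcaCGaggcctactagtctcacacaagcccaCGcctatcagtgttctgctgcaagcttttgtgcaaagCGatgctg
6430584L05Rik, chr6:55396737-55396886: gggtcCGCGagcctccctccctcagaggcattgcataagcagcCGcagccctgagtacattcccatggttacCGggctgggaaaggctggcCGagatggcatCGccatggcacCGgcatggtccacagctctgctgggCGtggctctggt
The first held 4 CG dinucleotides, the median of all windows, and the second 8.

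Rpl37, a protein of the large ribosomal subunit (chromosome 15, 5116645 to 5119140), was at 41.9 and 40.7 CPM in Control against 21.2 and 22.2 in Kat6a-cKO. It fell by 0.93 ± 0.11 on the log2 scale (adjusted p = 0.0196 by edgeR). Rps21, of the small subunit (chromosome 2, 180257377 to 180258445), was at 69.2 and 68.7 CPM against 41.5 and 41.2 and fell by 0.74 ± 0.092 (adjusted p = 0.0245). Rpl34 (chromosome 3, 130726831 to 130730398) was at 28.1 and 32.3 CPM against 12.1 and 16.3 and fell by 1.10 ± 0.15 (adjusted p = 0.0437). CT010467.1, a ribosomal RNA gene on chromosome 17 from 39846353 to 39848827, was at 2943 and 2844 CPM against 2025 and 2137 and fell by 0.48 ± 0.069 (adjusted p = 0.0497). In each of these 4 genes the higher Kat6a-cKO library was under the lower Control library. Ribosomal protein genes have many near-identical pseudogenes, so the counts assigned to each may be shared with copies.

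**Figure D4:**
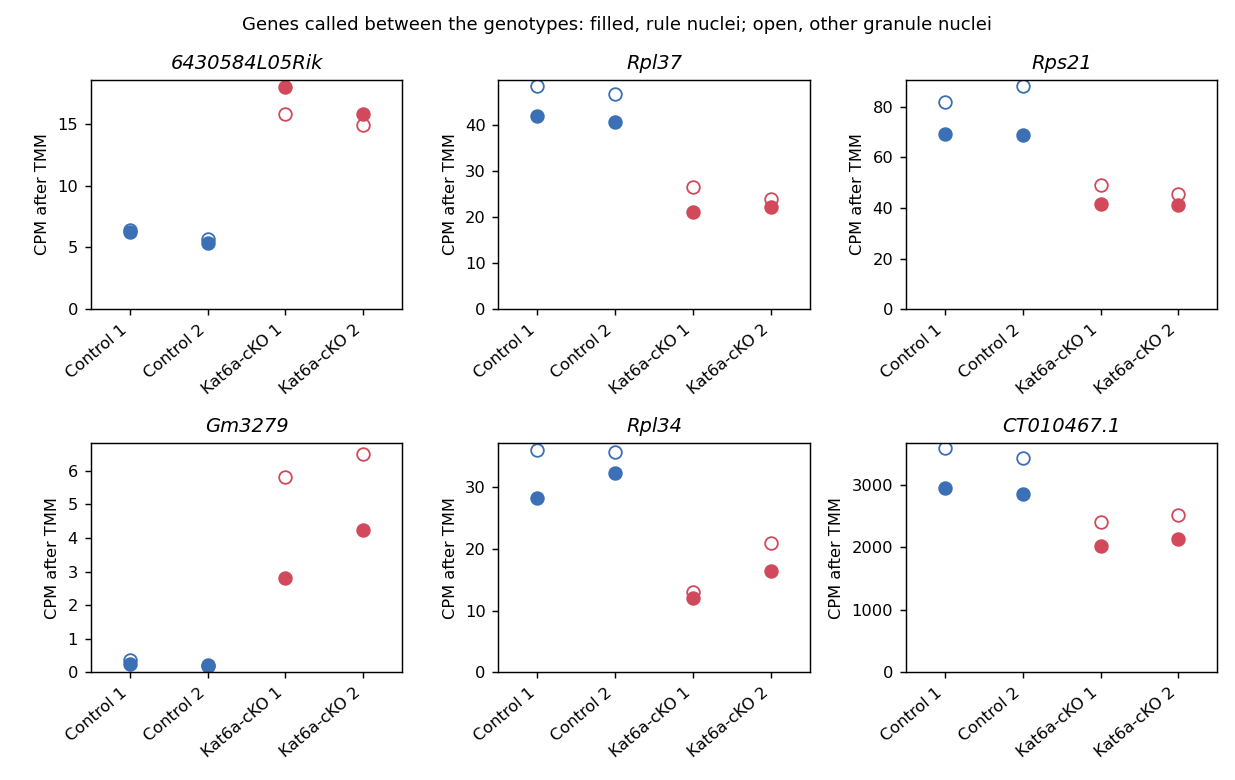
Levels (CPM after TMM, from 0) in each library of the 6 genes called between the genotypes in the members, with the members filled, the other granule nuclei open, Control in blue and Kat6a-cKO in red. Gm3279 and 6430584L05Rik are higher and Rpl37, Rps21, Rpl34 and CT010467.1 lower in both Kat6a-cKO libraries, in both kinds of nuclei.

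Most ribosomal protein genes were lower in Kat6a-cKO, few of them past the threshold. Of 80 tested, 3 fell, 0 rose, and 60 were lower in each Kat6a-cKO library than in each Control library. Of all genes tested, 18.8% were, and 17.7% were higher in each. Their median log2 change was -0.46, against -0.00051 for all genes. Their summed level in the members was 1849 and 2006 CPM in Control against 1380 and 1414 in Kat6a-cKO. Markers of 3 kinds of glia moved with this, with 0 past the threshold, and those of astrocytes did not. Of 6 oligodendrocyte markers tested, 5 were lower in each Kat6a-cKO library than in each Control library (median log2 change -0.60), as were 3 of 3 markers of oligodendrocyte precursors (-0.97) and 3 of 5 of microglia (-0.33). Mag, a myelin gene, was at 4.74 and 5.99 CPM before TMM in Control against 2.67 and 3.19. Of 5 astrocyte markers tested, 0 were lower in each Kat6a-cKO library than in each Control library and 1 was higher in each (median log2 change 0.22). The summed level in the members was 386 and 392 CPM in Control against 343 and 395 for oligodendrocytes, 13.7 and 15.97 against 11.2 and 10.5 for their precursors, and 146 and 174 against 124 and 126 for microglia. None of the 3 lists had a marker at 0 in the members of all libraries. The part of these cells in the falls was not tested. Measures of free RNA moved as well. The free RNA share of the members' counts, estimated from barcodes of 10 to 100 UMIs, was 1.36% and 1.44% in Control against 0.764% and 1.12% in Kat6a-cKO. Estimated from barcodes of 100 to 900 UMIs, it was 4.72% and 5.24% against 3.03% and 3.18%. Barcodes of 500 to under 1000 UMIs numbered 40865 and 54052 in Control against 7621 and 4134 in Kat6a-cKO. In barcodes of 100 to 900 UMIs, Rpl37 was at 838 and 764 CPM in Control against 544 and 508 in Kat6a-cKO, far above its level in the members. With the profile of 10 to 100 UMIs subtracted, Rpl37 was at -0.99 (adjusted p = 0.0269) and Rps21 at -0.76 (adjusted p = 0.0483), and 6430584L05Rik at 1.53 (adjusted p = 0.0269 by edgeR). Rpl34 at -1.20 (adjusted p = 0.0873), Gm3279 at 3.79 (adjusted p = 0.0503) and CT010467.1 at -0.45 (adjusted p = 0.113 by edgeR) no longer passed, with changes close to those before. With the profile of 100 to 900 UMIs subtracted, 15 and 19 counts of Rpl37 were left in Control, of 349 and 521, against 48 and 57 in Kat6a-cKO. Of CT010467.1, 0 counts were left in both Control libraries against 2259 and 6238 in Kat6a-cKO. Of Rpl34, 2 and 49 counts were left in Control, of 234 and 413. Fitted changes of Rpl37 (1.61), Rpl34 (0.93) and CT010467.1 (15.1) after that subtraction therefore have no usable size. The first 2 did not pass (adjusted p = 0.209 and 0.999 by edgeR), and CT010467.1 passed in the higher direction (adjusted p = 0.00639). Rps21, with 139 and 251 counts left in Control, was at -0.025 (adjusted p = 0.999 by edgeR), while Gm3279 at 3.94 (adjusted p = 0.0384) and 6430584L05Rik at 1.50 (adjusted p = 0.0147 by edgeR) passed. Without Kat6a-cKO replicate 1, none of the 6 passed, with changes of 1.45 for 6430584L05Rik, 4.09 for Gm3279, -0.90 for Rpl37, -0.74 for Rps21, -0.89 for Rpl34 and -0.44 for CT010467.1. Without Control replicate 1, Gm3279 at 3.84 (adjusted p = 0.0610) and CT010467.1 at -0.45 (adjusted p = 0.0741 by edgeR) did not pass. The part of free RNA in these falls was not tested beyond these values.

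No gene of the other lists passed for the genotype in the members, where 0.0425% of all genes did, so that lists of this length would hold few calls or none at that share. Of 22 TRH pathway genes tested, 0 rose and 0 fell (median log2 change -0.00052), and the same counts held for 15 genes of R-spondin and Wnt control at the membrane (median -0.0068), 21 Wnt ligand and nuclear Wnt genes (-0.053) and 7 anoctamins (-0.015). They held as well for 9 NIMA-related kinases (0.020), 7 genes of the KAT6A complex (-0.00038), 21 glutamate receptor genes (0.011) and 12 GABA-A receptor genes (-0.010). Among 17 activity genes, whose median was 0.41, Fosb had a log2 difference of 2.50 ± 0.60, from 0.119 and 0.559 CPM before TMM in Control to 1.42 and 2.98 (adjusted p = 0.252 by edgeR). The genes of the rule are described without a test. Trhr, at 26.8 and 21.7 CPM in Control against 27.6 and 22.4 in Kat6a-cKO, overlapped between the genotypes, as did Trabd2b at 127 and 130 against 129 and 123. Ano2 was at 36.8 and 43.1 CPM against 60.9 and 48.5, with both Kat6a-cKO libraries above, and the minimum on the sum limits how far these genes can differ. Among genes just short of the threshold, Nxph1, a neurexin ligand, was at 11.8 and 15.1 CPM against 5.72 and 5.83 (-1.23 ± 0.19, adjusted p = 0.0751), and Unc5d, a netrin receptor, at 142 and 141 against 188 and 199 (0.46 ± 0.075, adjusted p = 0.086 by edgeR).

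Whether the genotype difference differed between the members and the other granule nuclei was asked with an interaction term, with the library as a block. Of 16625 genes, 9 passed (0.0541%), all with a lower change in the members, and 5 of these passed again among the 7 of 16305 (0.0429%) called with the Rfx3 minimum. Luzp2, a leucine zipper gene of brain, was at 78.0 and 62.1 CPM in the members of Control and 42.7 and 49.9 in Kat6a-cKO. In the other granule nuclei it was at 98.6 and 69.8 against 109 and 101. The Kat6a-cKO libraries were thus lower in the members and higher in the others, and the difference of the changes was -0.94 ± 0.097 (adjusted p = 0.00127 by edgeR), or -0.85 with the Rfx3 minimum (adjusted p = 3.85e-05). Nxph1 was at 11.9 and 9.32 CPM against 13.8 and 15.5 in the others, opposite to the members, with a difference of -1.72 ± 0.22 (adjusted p = 0.00663 by edgeR), or -1.69 with the minimum. Both calls ended with Lgr6 left out of the rule, where the difference was -0.52 for Luzp2 and -1.21 for Nxph1 (adjusted p = 0.358 and 0.378 by edgeR). Both also ended with the profile of 100 to 900 UMIs subtracted, at -1.01 and -2.36 (adjusted p = 0.384 for each), and without Kat6a-cKO replicate 1, at -0.77 and -1.78 (adjusted p = 0.0964 and 0.231 by edgeR). Nxph1 did not pass with doublets left out (-2.15, adjusted p = 0.0606) or without Kat6a-cKO replicate 2 (-1.65, adjusted p = 0.0597 by edgeR). With a minimum of 8 UMIs, Luzp2 was at -0.21 (adjusted p = 0.966), while Nxph1 passed at -1.90 (adjusted p = 0.00171 by edgeR).

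Cntnap5c, a contactin-associated protein gene, was at 85.7 and 76.8 CPM in the members of Control and 87.4 and 92.4 in Kat6a-cKO, and in the others at 116 and 125 against 204 and 209. Its difference was -0.62 ± 0.076 (adjusted p = 0.00556 by edgeR), or -0.43 with the Rfx3 minimum (adjusted p = 0.0447). Kcnc2 had -0.71 ± 0.096 (adjusted p = 0.00839), or -0.54 with the minimum (adjusted p = 0.0393), and Cntnap2, outside the 5 genes of smallest p, -0.35 ± 0.055, or -0.22 (adjusted p = 0.0393 by edgeR). Gm49678 had -0.53 ± 0.072 (adjusted p = 0.00839), and its call ended with the minimum (adjusted p = 0.144 by edgeR). It also ended with doublets left out (adjusted p = 0.120), a minimum of 8 UMIs (0.264), Lgr6 left out of the rule (0.275), Kat6a-cKO replicate 2 left out (0.0716 by edgeR) and DESeq2 (0.118), and on thinned nuclei Gm49678 was at 0.022. With the minimum, Rmst, a neural non-coding RNA gene, was called with a higher change in the members (1.23, adjusted p = 0.00567), as was Dpp10, a potassium channel partner (0.83, adjusted p = 0.0258 by edgeR). Without the minimum Dpp10 was at 0.24 (adjusted p = 0.996) and Rmst at 0.85 (adjusted p = 0.0972 by edgeR). Dpp10 stood apart in the members of Control replicate 2, at 99.1 CPM before TMM scaling against 212, 332 and 213 in Control replicate 1 and Kat6a-cKO replicates 1 and 2. With nuclei thinned to 5000 UMIs and the rule set on the thinned counts, 11 genes were called, 3 of them among the 9. Luzp2 (-0.84) and Nxph1 (-1.85) still passed, while Cntnap5c was at -0.35 (adjusted p = 0.743), Kcnc2 at -0.34 (adjusted p = 0.896) and Cntnap2 at -0.042 (adjusted p = 0.993 by edgeR). Nuclei of low Rfx3, in which Kcnc2 averaged 751 CPM, were 3.67% and 4.09% of the other granule nuclei in Control against 4.90% and 4.73% in Kat6a-cKO. Without Kat6a-cKO replicate 1 the interaction gave 0 calls (661 genes had an unadjusted p under 0.05), and 15 to 112 without each of the other libraries. With the profile of 100 to 900 UMIs subtracted it gave 0 calls as well (559 genes had an unadjusted p under 0.05 by edgeR). By that profile, free RNA was 3.03% of the members' counts against 5.50% of the others' in Kat6a-cKO replicate 1, the widest gap. In Kat6a-cKO replicate 2 it was 3.18% against 4.08%, and in Control 4.72% against 6.65% and 5.24% against 6.65%. The part of this gap in the calls was not tested.

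**Figure D5:**
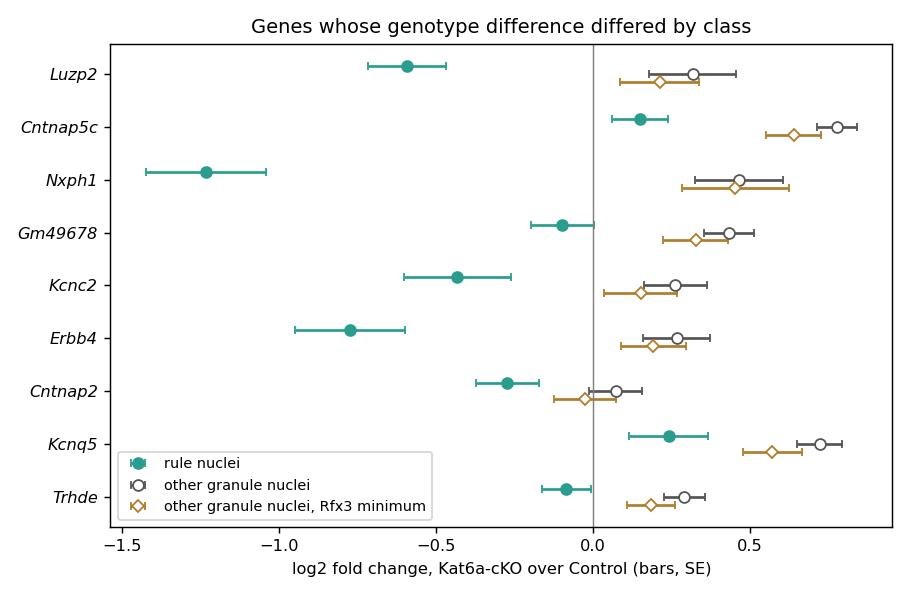
Log2 fold changes, Kat6a-cKO over Control (horizontal axis, bars are SE), of the 9 genes called in the interaction, for the members (filled), the other granule nuclei (open circles) and the other granule nuclei with the Rfx3 minimum (diamonds). Luzp2 and Nxph1 lie below 0 in the members and above 0 in both versions of the others.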

How the data were processed

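The authors deposited raw counts per gene and barcode for each library, as whole numbers and with empty droplets included. The genome build mm10 and Seurat 4.0.1 are named in the submitters' processing notes; the aligner and the counting strand are not given in the sources used here. Of 55422 gene IDs, 55154 had a symbol. The members and gene lists were chosen with earlier results of these data known.

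Counts were summed per library over the members and over the other granule nuclei. Genotype was tested with edgeR 4.0.16 (quasi-likelihood, TMM, filterByExpr, no replicate block, Benjamini-Hochberg threshold 0.05) in R 4.3.3 with 2 libraries a group, and the interaction with the library as a block. SE is the log2 fold change divided by the root of F. Named genes were all genotype calls, the interaction calls of smallest p (up to 5 a sign), and the 15 highest and 15 lowest ratios of CPM + 5 with 1 sign in all libraries and at least 20 CPM. Doublets were called by Scrublet in scanpy 1.11.5 at an expected rate of 0.06, kept in the main results, and left out as an alternative. On simulated data, 169 of 200 genes changed by 1 (log2) were recovered for genotype among 13839 genes, with 9 unchanged genes called, and 149 of 200 for the interaction. The changed genes were drawn only from genes of higher mean counts, so these values do not give the recovery over all genes tested. Each gene was drawn with the spread fitted for its mean level and without libraries that stand apart, so recovery in the real data may be lower.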

Additional observations from a re-analysis of the deposited data

Results flagged for a closer look

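The genotype difference (Kat6a-cKO against Control) differed between the members and the other granule nuclei in 9 genes by the interaction test. On the log2 scale, the difference in members minus that in the others was -0.938 for Luzp2, -0.624 for Cntnap5c, -1.72 for Nxph1, -0.528 for Gm49678 and -0.705 for Kcnc2. It was -1.04 for Erbb4, a neuregulin receptor gene, -0.355 for Cntnap2, -0.492 for Kcnq5, a potassium channel gene, and -0.378 for Trhde. Erbb4, Kcnq5 and Trhde are named here because they passed, outside the 5 of smallest p. With the Rfx3 minimum Erbb4 was at -0.96 (adjusted p = 0.0737), Kcnq5 at -0.29 (adjusted p = 0.0602) and Trhde at -0.26 (adjusted p = 0.555 by edgeR). Each genotype had 2 libraries, so no library could be singled out by a test of outliers. With nuclei thinned to 5000 UMIs, Erbb4 was at -0.98 and passed, and Kcnq5 at -0.11 and Trhde at -0.13 did not (adjusted p = 0.993 for both by edgeR).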

How the results depend on the processing

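The genotype comparison gave 6 calls, and 4 with RLE size factors, 4 without doublets, 4 with the rule without Lgr6 and 4 with the Rfx3 minimum. Rpl34 and CT010467.1 did not pass with RLE (adjusted p = 0.0502 and 0.0524 by edgeR) or without doublets (0.0687 and 0.0691). Without doublets Gm3279 was not among the genes tested, so 3 of the 4 calls were among the 6. Neither passed with the Rfx3 minimum (adjusted p = 0.0645 for both by edgeR). With the rule without Lgr6, Gm3279 and CT010467.1 did not pass (adjusted p = 0.0554 and 0.107 by edgeR). The genotype comparison gave 213 calls with no filter on low counts, 16 with DESeq2 and 45 with nuclei thinned to 5000 UMIs. Of the 16 calls with DESeq2, 4 were among the 6, while 6430584L05Rik and Gm3279 had no adjusted p there. It gave 0 with a minimum of 8 UMIs (683 genes had an unadjusted p under 0.05) and 3 with free RNA subtracted. With free RNA subtracted by the profile of 100 to 900 UMIs it gave 34, of which 33 were higher and 1 lower in Kat6a-cKO. Leaving out a library gave 1 to 157 calls, 1 without Kat6a-cKO replicate 1 and 157 with replicate 2 of that group left out. A replicate block gave 82 calls, but the labels give same-numbered libraries nothing in common beyond the number. The correlation of their deviations over 14109 genes was 0.0859, and whether they were handled together was not tested. The interaction gave 9 calls, and 70 with no filter, 5 with DESeq2, 23 with a minimum of 8 UMIs, 0 with the profile of 100 to 900 UMIs (559 under an unadjusted 0.05), and 0 to 112 without a library; a replicate block adds nothing to its library block and was not run. With fewer libraries, the lone one is assumed to vary like the others.

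The share difference was -1.10 to 9.31 points without a library, the lowest without Control replicate 1. Genes at least 2-fold higher numbered 5, and 8 with 1 CPM added and 9 against nuclei with 0 UMIs of the 5 genes; without a library, 5 or 6. Genes at least 2-fold lower numbered 0, and 1 with a minimum of 3 UMIs, 10 without doublets, 17 with the rule on thinned nuclei, 34 against nuclei with 0 UMIs, 2 with the members thinned, and 0 to 1 without a library. With the profile of 100 to 900 UMIs, Rpl37 was at 1.61, Rpl34 at 0.93 and CT010467.1 at 15.1 (adjusted p = 0.00639), values with no usable size since few or 0 Control counts were left. Gm49678 was at 0.022 in the interaction of thinned nuclei. The cause was not tested. The Rfx3 minimum, the rule without Lgr6, the profile of 100 to 900 UMIs and the members thinned were chosen after seeing the data.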
